A study of Zea mays with 6 samples.

Results

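Genes of meristem and organ patterning were followed in maize endosperm, and no transcript change between the wild type and the smk8-ref mutant could be established for any of them. The 7 genes were taken by the names the authors' table gives them, which are KN-1, RS2, LBD6, FEA2, TD1, SCR and WOX3A, and each name stood for 1 locus, so they are 7 of the 36781 loci measured. Their levels were low. FEA2 was above 1 FPKM in all 6 libraries, KN-1, RS2 and LBD6 reached it in 3, 3 and 4 of the 6 libraries, and TD1, SCR and WOX3A were below it in every library. FPKM counts sequenced fragments per kilobase of a transcript, relative to the size of the library. All 7 means were higher in smk8-ref, as were 69.2% of loci with a similar mean level. The lowest value of 6 of the 7 genes was in 1 WT library, replicate 1, as it was for 38.6% of those loci.

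The libraries were made from total RNA of endosperm, the tissue that stores starch and protein in the kernel, taken 12 days after pollination. There were 3 libraries from wild type (WT) and 3 from smk8-ref, the reference allele of the mutant smk8. The labels call the genotypes wild type and smk8-ref mutant and name no treatment. Neither the genetic background nor the number of kernels or ears behind a library is stated, and the p-values describe only how these libraries vary. Values below are listed in the order of replicates 1, 2 and 3 of a genotype.

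Meristems are groups of dividing cells from which the organs of a plant arise. KN-1 (knotted) is a homeobox transcription factor of the class I knox group that keeps shoot meristem cells undetermined, and RS2 (rough sheath) is a MYB protein that keeps knox genes off in leaf primordia. LBD6, listed in RefSeq also as IG1, is a LOB-domain protein related to the Arabidopsis protein that acts with the RS2 homologue on knox genes, and in maize its mutants have an embryo sac that proliferates for too long. FEA2 (fasciated ear) and TD1 (thick tassel dwarf) are leucine-rich repeat receptors of the CLAVATA pathway, which limits the size of inflorescence meristems, FEA2 without a kinase domain and TD1 with one. SCR (scarecrow) is a GRAS-family transcription factor that patterns the root ground tissue. WOX3A is a homeobox protein of the WOX family, and RefSeq (assembly Zm-B73-REFERENCE-NAM-5.0) lists this name for 2 genes, of which the 1 on chromosome 2, the chromosome of the locus measured here, also carries the name narrow sheath (ns1), a factor for the lateral domain of leaves. The other 6 names each matched 1 RefSeq gene, on the same chromosome as in the authors' table.

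The libraries differed in how many loci they detected. The number of loci at 1 FPKM or more was 14350, 14920 and 15312 in WT replicates 1 to 3 and 15625, 15988 and 15942 in smk8-ref replicates 1 to 3. WT replicate 1 thus had the fewest loci, and all 3 smk8-ref libraries had more than any WT library. The sources used here give no read totals, so no counting interval is given. Of 12 starchy-endosperm, 14 basal transfer layer and 1 pericarp marker names looked for, 0 were matched by name, and they were not analysed here. Of 7 aleurone marker names, 1 was matched, CR4, a receptor kinase gene. It was present at 7.24 to 8.93 FPKM in WT and 9.24 to 10.4 FPKM in smk8-ref, and did not pass the test described below (limma adjusted p = 0.21).

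The order of the genes by mean level was the same in both genotypes. FEA2 led with 2.41 ± 0.260 FPKM (SD, n = 3) in WT and 3.34 ± 0.220 in smk8-ref. LBD6, KN-1, RS2, SCR and TD1 followed, and WOX3A was last, with 0 to 0.524 FPKM in WT and 0.123 to 0.391 FPKM in smk8-ref. FEA2 was the highest of the 7 genes in 6 of 6 libraries, and its range was apart from that of LBD6 in both genotypes. The ranges of the neighbours LBD6 and KN-1, KN-1 and RS2, RS2 and SCR, and SCR and TD1 overlapped in both genotypes. Within a library, SCR was above TD1 in 3 of 3 libraries of each genotype, and KN-1 was above RS2 in 3 of 3 smk8-ref libraries and 1 of 3 WT libraries. WOX3A lay below TD1 in every smk8-ref library with no overlap, and in WT the ranges overlapped. WOX3A was the lowest of the 7 in 5 of 6 libraries, the exception being WT replicate 2. Among all loci with a value above 0 in any library, FEA2 exceeded 69.6% to 73.2% of loci in each library, and KN-1 exceeded 15.4% in WT replicate 1 and 56.9% to 62.1% in the other libraries.

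**Figure D1:**
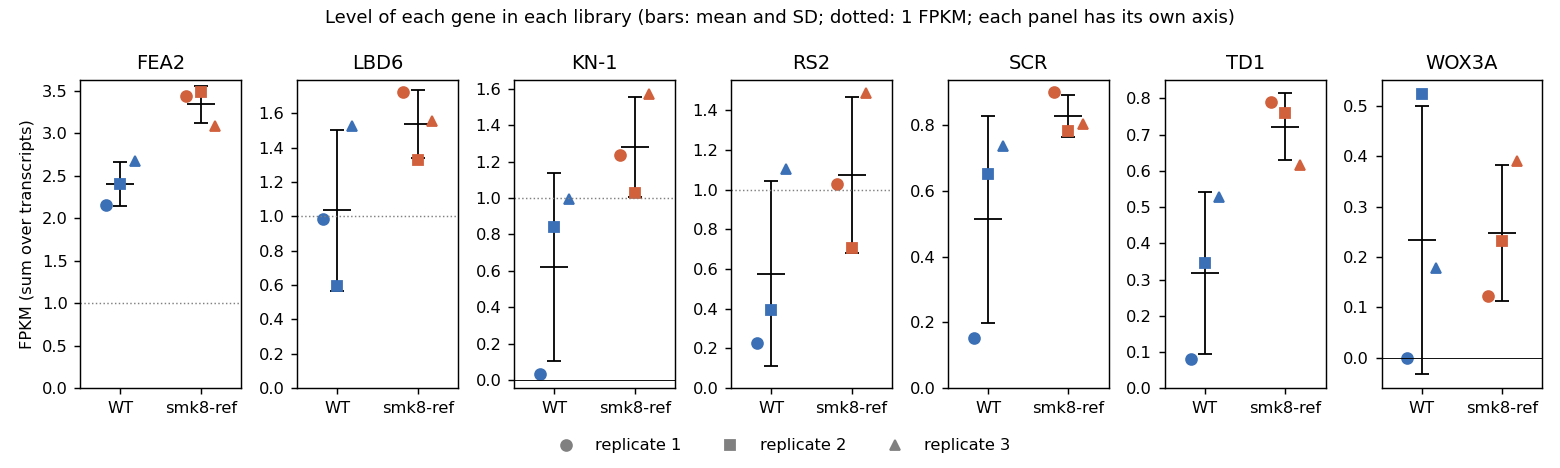
FPKM of each gene in each library, with WT in blue and smk8-ref in orange, symbols for the replicates and bars for the mean and SD of 3 libraries. The dotted line is 1 FPKM where the axis reaches it. Every smk8-ref library lies above every WT library for FEA2, KN-1, SCR and TD1, as for 18.4% of loci in the genes' range of mean level. WT replicate 1 is the lowest library for all genes but LBD6, as for 38.6% of those loci.

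Genotypes were compared with limma on log2(FPKM + 1) over the loci with at least 1 FPKM in at least 3 libraries. A fold change on this scale understates the change of low genes. Of the 7 genes, 4 passed this filter, namely FEA2, LBD6, KN-1 and RS2. KN-1 passed through its smk8-ref libraries alone, with 3 at 1 FPKM or more there and 0 in WT. None of the 4 passed an adjusted p of 0.05 in limma (0 of 4, adjusted p = 0.16 to 0.31), while 7.6% of the tested loci did. At an unadjusted p under 0.05, 1 of the 4 passed, which was FEA2, against 28.3% of tested loci. With no filter, where all 7 were fitted, 0 of 7 passed and 1.05% of loci did, and 1 of the 7, TD1, had an unadjusted p under 0.05, against 16.9% of loci. Groups that did not overlap, with smk8-ref above, were found for 4 of the 7 genes and for 18.4% of the 13224 loci in their range of mean level (0.241 to 2.87 FPKM over the 6 libraries). In endosperm as a bulk tissue, a difference in the number of cells of a type and one in RNA per cell cannot be told apart.

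KN-1 (Zm00001d033859, chromosome 1, 276073335 to 276081242, minus strand) measured 0.0327, 0.838 and 0.993 FPKM in the WT libraries and 1.24, 1.03 and 1.57 FPKM in the smk8-ref libraries. All smk8-ref libraries were above all WT libraries, by a small margin over WT replicate 3, and WT replicate 1 was far below the others. The means were 0.621 ± 0.515 and 1.28 ± 0.274 FPKM (SD, n = 3), a log2 change of 0.54 ± 0.27 (SE) with a 95% interval from -0.09 to 1.18 (limma adjusted p = 0.24). Without WT replicate 1 the log2 change was 0.25 (limma adjusted p = 0.46). The WT mean was then 0.915 FPKM, and the ratio of the smk8-ref to the WT mean went from 2.06 to 1.40.

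RS2 (Zm00001d030737, chromosome 1, 156875930 to 156877042, minus strand), the regulator that holds knox genes off in leaves, measured 0.228, 0.394 and 1.11 FPKM in the WT libraries and 1.03, 0.705 and 1.49 FPKM in the smk8-ref libraries. The groups overlapped, since WT replicate 3 lay above smk8-ref replicates 1 and 2. The log2 change was 0.42 ± 0.25 (SE, 95% interval -0.17 to 1.0, limma adjusted p = 0.31). Leaving out WT replicate 1 gave 0.26, leaving out WT replicate 3 gave 0.65 and leaving out smk8-ref replicate 3 gave 0.28, and none of these passed (limma adjusted p = 0.60, 0.10 and 0.59).

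LBD6 (Zm00001d042560, chromosome 3, 171820603 to 171823900, minus strand) measured 0.986, 0.594 and 1.53 FPKM in the WT libraries and 1.73, 1.33 and 1.56 FPKM in the smk8-ref libraries. It was the gene of the 7 whose lowest value was not in WT replicate 1 but in WT replicate 2, and the value of WT replicate 3 fell inside the smk8-ref range. The means were 1.04 ± 0.470 and 1.54 ± 0.200 FPKM, with a log2 change of 0.34 ± 0.20 (SE, 95% interval -0.13 to 0.81, limma adjusted p = 0.31). Without WT replicate 2 the log2 change was 0.18 (limma adjusted p = 0.59). The regulators RS2 and LBD6 had higher means in smk8-ref, as had the knox gene KN-1, and none of the 3 passed. The ratio of RS2 to KN-1 within a library was 6.98, 0.470 and 1.12 in WT replicates 1 to 3 and 0.830, 0.686 and 0.945 in smk8-ref replicates 1 to 3. The smk8-ref ratios lay within the range of the WT ratios (exact two-sided permutation test on log2 ratios, p = 0.70, smallest possible 0.1).

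The table lists 5 transcripts of KN-1 and 2 of LBD6, and 1 for each of the other genes. Transcripts T002 and T005 made up most of KN-1. T002 was listed with 0, 0 and 0.505 FPKM in the WT libraries and 0.537, 0.503 and 0.923 FPKM in the smk8-ref libraries. T005 was listed with 0, 0.750 and 0.316 FPKM in the WT libraries and 0.588, 0.424 and 0.518 FPKM in the smk8-ref libraries. Thus T005 held 89.5% of KN-1 in WT replicate 2 and 31.8% in WT replicate 3, while in smk8-ref it held 32.9% to 47.5%, and all of the 0.0327 FPKM in WT replicate 1 was assigned to T009. The KN-1 transcripts span 4597 to 7908 bases of the same locus at these low levels, so the division of fragments between them is uncertain.

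The transcripts of LBD6 also divided unevenly. T001 was listed with 0, 0.292 and 0.433 FPKM in the WT libraries and 1.37, 0.476 and 0.856 FPKM in the smk8-ref libraries. For T001, smk8-ref replicate 2 was near WT replicate 3. How many of all transcripts differ in this way between the genotypes was not counted, so no change is read from T001. T002 measured 0.986, 0.302 and 1.10 FPKM in the WT libraries and 0.357, 0.853 and 0.702 FPKM in the smk8-ref libraries, and its groups overlapped. T001 accordingly held 0% to 49.1% of LBD6 in WT and 35.8% to 79.3% in smk8-ref. The transcripts share nearly their whole span (3284 and 3298 bases on the chromosome), so the division of fragments between them is uncertain.

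**Figure D2:**
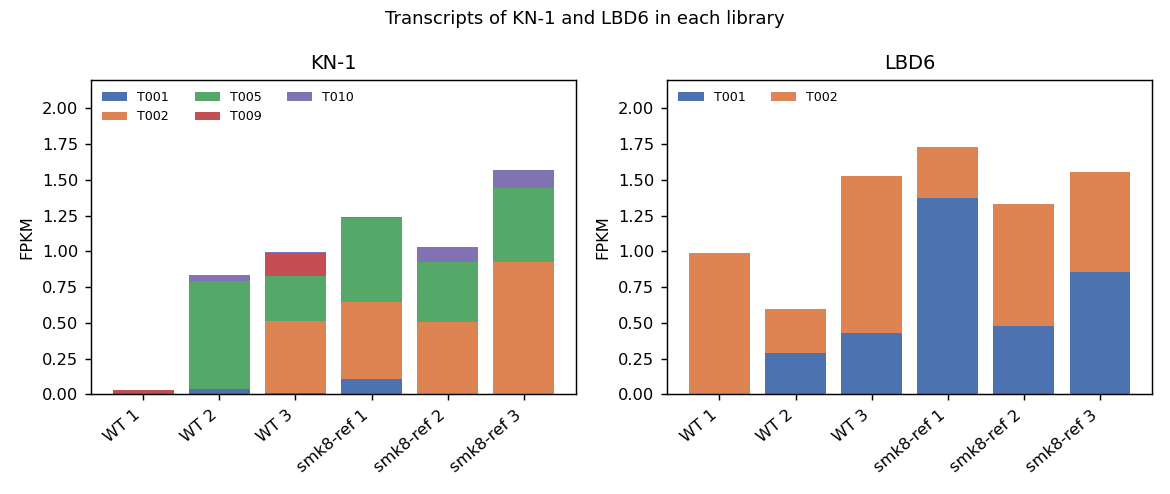
Stacked FPKM of the listed transcripts of KN-1 (left) and LBD6 (right) in each library. The share of KN-1 held by T005 runs from 0% in WT replicate 1 to 89.5% in WT replicate 2. The share of LBD6 held by T001 runs from 0% in WT replicate 1 to 79.3% in smk8-ref replicate 1.

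The groups of both CLAVATA receptors did not overlap, with smk8-ref above, as for 18.4% of loci of like level, and neither gene passed. FEA2 (Zm00001d051012, chromosome 4, 136765871 to 136767712, minus strand) measured 2.15, 2.40 and 2.67 FPKM in the WT libraries and 3.44, 3.49 and 3.09 FPKM in the smk8-ref libraries. The spread within each genotype was small, and the gap between the groups was 0.416 FPKM. The log2 change was 0.35 ± 0.14 (SE, 95% interval 0.01 to 0.69), the narrowest interval of the 4 tested genes, with an unadjusted p of 0.044 that did not pass adjustment over all loci (limma adjusted p = 0.16). With any 1 library left out the log2 change was between 0.30 and 0.41.

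TD1 (Zm00001d014793, chromosome 5, 63456839 to 63460120, plus strand) measured 0.0806, 0.346 and 0.528 FPKM in the WT libraries and 0.790, 0.760 and 0.616 FPKM in the smk8-ref libraries. All smk8-ref values were above all WT values and none reached 1 FPKM, so TD1 was below the filter. The means were 0.318 ± 0.225 and 0.722 ± 0.0929 FPKM (exact two-sided permutation test, p = 0.1, the smallest that 3 against 3 libraries allow). With no filter the log2 change was 0.40 ± 0.16 (SE, unadjusted p = 0.038, limma adjusted p = 0.27). The ratio of the means was 2.27, and 1.65 without WT replicate 1.

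Within a library, the FPKM of FEA2 was 26.7, 6.94 and 5.06 times that of TD1 in WT replicates 1 to 3 and 4.36, 4.59 and 5.01 times in smk8-ref replicates 1 to 3. The smk8-ref ratios were close to each other, and all were below the WT ratios, narrowly so at WT replicate 3 (exact two-sided permutation test on log2 ratios, p = 0.1, smallest possible 0.1). The low TD1 value of WT replicate 1 set the width of the WT range. Ratios of LBD6 to RS2, LBD6 to KN-1 and FEA2 to KN-1 were also taken. The same permutation test gave p = 0.6, 0.7 and 0.5 for them. How often ratios of other loci lie apart was not counted, so the FEA2 to TD1 ratio is given as a description.

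SCR (Zm00001d052380, chromosome 4, 188747594 to 188751193, plus strand) measured 0.153, 0.650 and 0.736 FPKM in the WT libraries and 0.901, 0.782 and 0.804 FPKM in the smk8-ref libraries. The groups did not overlap, but WT replicates 2 and 3 were close to the smk8-ref values and WT replicate 1 was far below them. The means were 0.513 ± 0.315 and 0.829 ± 0.0634 FPKM (exact two-sided permutation test, p = 0.1, smallest possible 0.1). Their ratio was 1.62, and 1.20 without WT replicate 1. With no filter SCR had a log2 change of 0.30 ± 0.19 (SE, limma adjusted p = 0.49).

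WOX3A (Zm00001d004889, chromosome 2, 147004057 to 147005221, minus strand) was listed at 0 in the first WT library, while the others held 0.524 and 0.178 FPKM. In smk8-ref replicates 1 to 3 it stood at 0.123, 0.232 and 0.391 FPKM. Its highest library was a WT one, the groups overlapped fully, and the exact two-sided permutation test gave p = 1 (smallest possible 0.1). With no filter the log2 change was 0.03 (95% interval -0.34 to 0.40, limma adjusted p = 0.95). It was -0.11 without WT replicate 1, so no direction can be given for WOX3A.

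**Figure D3:**
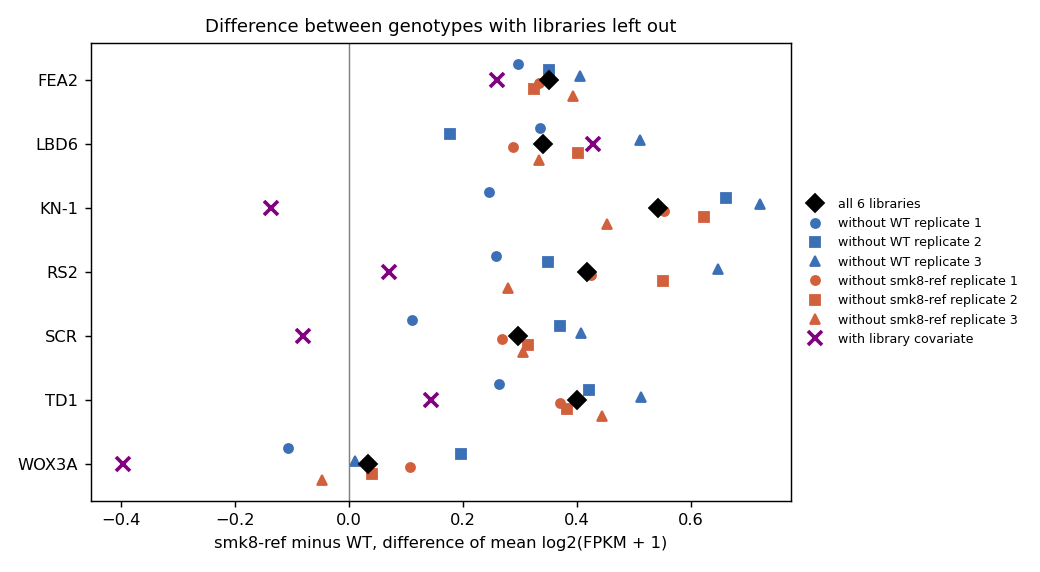
Difference of the mean log2(FPKM + 1), smk8-ref minus WT, for each gene over all 6 libraries (black diamonds), with 1 library left out (coloured symbols) and with the library covariate of the authors' values (purple crosses). All values with 1 library left out are above 0 for 6 of the genes, and for WOX3A they run from -0.11 to 0.20.

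The 7 genes were set beside all 13224 loci in their range of mean level. A higher mean in smk8-ref was found for 7 of the 7 genes and for 69.2% of these loci. The median log2 difference was 0.35 for the 7 genes, 0.12 for the loci of like level and 0.05 for all tested loci. The median of all tested loci depended on scaling, at 0.0045 with TMM and -0.02 with quantile normalization. No test was made of the difference between the 7 genes and the other loci.

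The same comparison was made for WT replicate 1. It was the lowest of the 6 libraries for 6 of the 7 genes and for 38.6% of the loci of like level. Without it, 6 of the 7 had a higher mean in smk8-ref, against 62.4% of these loci, and the median log2 difference of the 7 genes was 0.26 against 0.07. Every smk8-ref library was above WT replicates 2 and 3 for 4 of the 7, against 21% of these loci. The SD between libraries was larger in WT than in smk8-ref for 7 of the 7 genes and for 50.7% of these loci, and without WT replicate 1 for 4 of the 7 and 42.6%. The part of this library in the differences was otherwise not tested.

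Few further genes of the same processes carry a name in the table. Of 127 names searched in 6 lists (knox genes and their regulators, the CLAVATA pathway, the WOX family, GRAS and root patterning, leaf polarity, inflorescence and floral identity), 9 loci were found, of which 7 are the genes above. D8, a DELLA protein of the GRAS family that represses gibberellin responses, measured 0.937, 1.0 and 1.57 FPKM in the WT libraries and 2.10, 1.30 and 2.37 FPKM in the smk8-ref libraries. Its groups overlapped, since smk8-ref replicate 2 was below WT replicate 3, and it did not pass (log2 change 0.42 ± 0.20, SE, limma adjusted p = 0.23). TGA1, an SBP-domain factor of the glume that encloses the kernel, was under 0.27 FPKM in every library and was not tested (0.138 ± 0.0663 FPKM in WT and 0.232 ± 0.0327 in smk8-ref). Thus 1 of the 2 further loci was tested, and it passed in neither direction.

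Markers of the embryo, the part of the kernel where the shoot meristem lies, varied between the same libraries. Of 18 embryo marker names, 3 were matched, all of them genes of oil-body-associated proteins (OBAP1A, OBAP2A and OBAP2B). Their summed level was 20.6, 25.4 and 67.0 FPKM in WT replicates 1 to 3 and 87.9, 58.1 and 76.1 FPKM in smk8-ref replicates 1 to 3. The value of WT replicate 3 was inside the smk8-ref range, as it was for RS2, LBD6 and WOX3A, while for KN-1, FEA2, TD1 and SCR it was below every smk8-ref library. Of the 3 marker genes, 0 passed (limma adjusted p = 0.077 to 0.25). WT replicate 3 was also the highest WT library for 6 of the 7 patterning genes, against 45.1% of the loci of like level. The oleosin, globulin and LEC1 names on the marker list were not matched, so the sum covers genes of oil-body-associated proteins only. Whether that sum marks embryo RNA in these libraries was not tested. The part of embryo RNA in the levels of the 7 genes was not tested. Of the endosperm cells around the embryo, 2 marker genes were measured, ESR1 and ESR3. Their summed level was 4.73 to 6.39 FPKM in WT and 0.909 to 8.51 FPKM in smk8-ref. ESR3 fell (log2 change -1.31 ± 0.29, SE, limma adjusted p = 0.043), while 7.6% of all tested loci passed in either direction. ESR1 had the opposite sign and did not pass (log2 change 0.13 ± 0.55, SE, limma adjusted p = 0.90). Its smk8-ref replicates 1 to 3 were spread widely, at 0.601, 6.76 and 1.06 FPKM. For ESR3 no value with 1 library left out is given here. Over all loci such fits called 28 to 1425, against 1205 with all libraries.

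**Figure D4:**
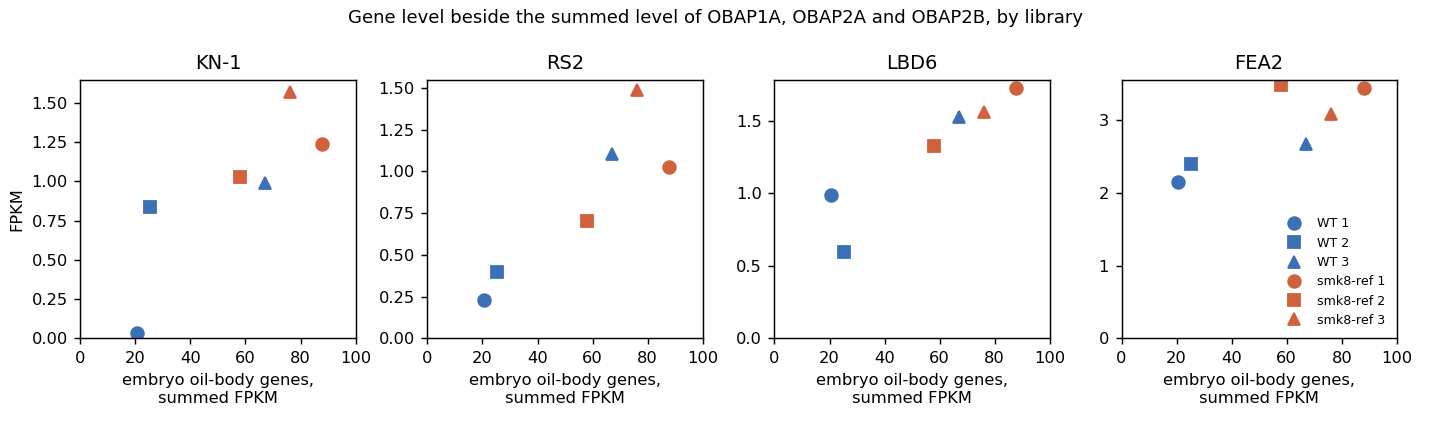
FPKM of KN-1, RS2, LBD6 and FEA2 (vertical axes) against the summed FPKM of OBAP1A, OBAP2A and OBAP2B (horizontal axes), 1 point per library. WT replicates 1 and 2 lie at the left, at 20.6 and 25.4 FPKM, and WT replicate 3 lies at 67.0 FPKM among the smk8-ref libraries.

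For the 2 genes with a mean of at least 1 FPKM over the 6 libraries, FEA2 and LBD6, the named loci of most similar pattern were sought among 185 by the Pearson correlation of log2(FPKM + 1) over the 6 libraries, which includes the difference between genotypes and is given as a description. For FEA2 they were PHYA1, a phytochrome gene (r = 0.93), and TIP3-1, a tonoplast aquaporin gene (r = 0.92). PHYA1 had a mean of 1.14 ± 0.122 FPKM in WT and of 1.98 ± 0.182 in smk8-ref, with groups that did not overlap, and did not pass (limma adjusted p = 0.083). TIP3-1 measured 2.53, 6.26 and 17.1 FPKM in the WT libraries and 56.7, 24.0 and 34.3 FPKM in the smk8-ref libraries. Its groups did not overlap either, and it did not pass (log2 change 2.26 ± 0.59, SE, limma adjusted p = 0.064). For LBD6 they were SODCC.2, a superoxide dismutase gene (r = 0.96), and OBAP2A (r = 0.94). SODCC.2 measured 31.8, 25.6 and 56.3 FPKM in the WT libraries and 54.9, 38.2 and 48.9 FPKM in the smk8-ref libraries. OBAP2A measured 12.0, 10.03 and 23.6 FPKM in the WT libraries and 41.7, 26.3 and 31.3 FPKM in the smk8-ref libraries. Both were lowest in WT replicate 2, as was LBD6. SODCC.2 was highest in WT replicate 3, and OBAP2A, like LBD6, in smk8-ref replicate 1. These loci were chosen by likeness to FEA2 or to LBD6, so features shared with that gene, such as groups that do not overlap, follow from the choice.

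The authors' deposited table gives no change for any of the 12 transcripts of these genes. All 12 are marked as no change in the authors' deposited table, with p-values from 0.13 to 0.97 and q-values from 0.86 to 0.996. How many of all transcripts carry the same mark was not counted, so the mark sets these genes apart from no others. The signs differ in part from those of the group means. Of the 12 transcripts, 10 had a higher mean log2(FPKM + 1) in smk8-ref, and 6 have a log2 fold change above 0 in the authors' deposited table. Over all 86771 transcripts the same counts were 51118 and 42672. SCR is given there as -0.08, WOX3A as -0.40 and the T005 transcript of KN-1 as -0.24, where the difference of the mean log2(FPKM + 1) was 0.30, 0.03 and 0.19. FEA2 is given as 0.26 in the authors' deposited table, TD1 as 0.14 and RS2 as 0.07.

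The deposited fold changes of all 86771 transcripts were matched within 0.001 on the log2 scale by a linear model with genotype and 1 library covariate, the sum of the nonzero log2(FPKM + 1) values below their upper quartile. That covariate was 17070, 19987 and 19679 in WT replicates 1 to 3 and 20599, 21956 and 22118 in smk8-ref replicates 1 to 3. It was lowest in WT replicate 1 and higher in every smk8-ref library than in any WT library, so it moved with genotype, and its part in the differences was not tested beyond the values given here. Over all transcripts, 26.5% had opposite signs in the authors' deposited table and in the plain difference of means, as had 4 of the 12 transcripts of these genes (33.3%).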

How the data were processed

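The authors deposited FPKM per transcript for 6 libraries. The submitters' processing notes name HISAT and StringTie; the sources used here give neither settings nor a genome build, and coordinates are those of the deposited table. The authors' deposited table also holds for every transcript a fold change (a ratio), its log2, and p- and q-values (columns of p-values).

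FPKM was summed per locus (36781 loci). Loci with at least 1 FPKM in at least 3 libraries (15858) were fitted in R 4.3.3 with limma 3.58.1, after log2(FPKM + 1), (empirical Bayes with a variance trend, two-sided, Benjamini-Hochberg over all loci tested, threshold 0.05), a procedure tested on simulated data. Genes below the filter were tested by exact permutation of FPKM. TMM factors were computed without weights. Read depth is unknown, so no count test was run. Named were the 7 genes, all listed pathway and marker loci found by name, and the 2 named loci most correlated with each of the 7 whose mean was at least 1 FPKM. The genes and lists were chosen with earlier results of these data known. The comparison of SD, the within-library ratios and the library covariate were added after the values were seen.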

Additional observations from a re-analysis of the deposited data

How the results depend on the processing

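None of the genes fitted passed in any of the 16 alternative fits that gave a value (4 of the 7 genes in each, and all 7 with no filter), and the lowest adjusted p among them was between 0.10 and 0.63; a filter at 5 FPKM left none of them. Of 110 alternative log2 differences, 104 were above 0 and 6 below. The fits with no filter, no variance trend or a replicate block return the main difference unchanged, and all settings reuse the same libraries. The tally is therefore no measure of support for a direction. With the library covariate of the authors' values (chosen after seeing the data), KN-1 was at -0.14, SCR at -0.08 and WOX3A at -0.40. In that setting RS2 was at 0.07, TD1 at 0.14, FEA2 at 0.26 and LBD6 at 0.43. LBD6 was at -0.11 with its most abundant transcript alone. WOX3A was also below 0 without WT replicate 1 (-0.11) and without smk8-ref replicate 3 (-0.05). Over all loci the number called was 388 with no filter, 779 with quantile normalization, 6 with the library covariate, and 28 to 1425 with 1 library left out, against 1205 (538 higher, 667 lower). TMM scaling gave 510 higher and 1017 lower. The count was 36 with the replicate number as a block, where none of the 4 genes fitted passed. In a check of pairing by replicate number, the coefficients for equal numbers were 0.0069, -0.0085 and 0.083. Of the 3 numbers, 1 had its best partner in its own number. These coefficients describe the pairing only, not how alike the levels of the libraries were. With so few libraries the check cannot tell whether equal numbers share a source, and the labels do not say. The cause of these shifts was not tested. TD1, SCR and WOX3A were under 1 FPKM in every library at an unknown read depth, and the exact test of 3 against 3 libraries could not go below 0.1.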
